A study of Homo sapiens with 5 samples.

Results

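ATF3 formed 70128 peaks on chromosomes 1 to 22 and X in camptothecin-treated HCT116 cells. Of these, 1649 had their centre inside an exon of a protein-coding transcript and over 2 kb from the TSS of every such transcript. These exon sites fell in 1447 genes, of which 1275 held 1 site. Intron peaks at the same distance numbered 24782, peaks outside protein-coding genes 28325, and peaks within 2 kb of a TSS 15372. A further 3863 peaks were centred in an exon but lay too close to a TSS, the nearest of them just outside the limit at 1988 bp and the nearest exon site just inside it at 2003 bp. The annotated start of a gene of any type, which this rule did not count, lay within 2 kb of 148 exon sites (8.98%). Among those named below, they included *PELO* (94 bp), *IER2* (180 bp), *GRAPL* (397 bp), *OSBPL11* (737 bp), *SEPTIN10* (836 bp) and *PAQR9* (1443 bp).

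The study mapped ATF3 and p53 by ChIP-seq in HCT116, a human colorectal cancer cell line, and asked where ATF3 binds before and after DNA damage. Camptothecin (CPT) traps topoisomerase I on DNA and causes strand breaks during replication. The ATF3-CPT library came from cells with wild-type ATF3 that were kept for 4 h in CPT at 1.5 μM, and ATF3-Ctrl from the same cells given DMSO. ATF3-KO came from cells whose ATF3 gene had been disrupted by AAV-mediated recombination, also given DMSO, so no CPT-treated cells without ATF3 were measured. p53-CPT was precipitated with a p53 antibody from CPT-treated cells, and p53-KO from cells without p53 given DMSO. All chromatin was cross-linked with DSG and then formaldehyde. Each condition had 1 library and no replicate, so the intervals given here are 95% intervals that cover counting error only and leave out the spread between cultures. The libraries held 15457013 tags for ATF3-CPT, 12947516 for ATF3-Ctrl and 12820520 for ATF3-KO, with 3169743 for p53-CPT and 1984941 for p53-KO. The lists start at 9 tags for both wild-type ATF3 libraries, 11 for ATF3-KO, 7 for p53-CPT and 6 for p53-KO.

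ATF3 is a bZIP transcription factor that DNA damage and other stresses induce. It binds as a homodimer or as a partner of JUN and related proteins to the AP-1 site and to the ATF/CRE site, which is longer by 1 base pair. Sites of this kind are best known from promoters and enhancers. Inside an exon the same bases also serve another purpose, because they encode amino acids, lie in an untranslated region (UTR) of the mRNA, or mark the border at which the intron is spliced out.

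Both cores begin with TGA, a stop codon when read in frame, and the AP-1 core TGAGTCA also occurs in the bases that open some introns. The sequences that follow show cores in these settings, each read 5′ to 3′ on the strand of its gene (GRCh37, the build of hg19), with the core in capitals and 10 bases on either side. The cores of *ELAPOR1*, *EFNA5*, *TCP11L1* and *HDAC10* lay wholly in coding sequence. *ELAPOR1* encodes an endosome and lysosome protein, *EFNA5* an ephrin ligand and *HDAC10* a deacetylase.
ELAPOR1 coding, AP-1, chr1:109740142-109740168, plus strand: ttcctgagggTGAGTCAgggttctcca
EFNA5 coding, AP-1, chr5:106717048-106717074, minus strand: acaccgtacaTGAGTCAgccgagccat
TCP11L1 coding, AP-1, chr11:33083117-33083143, plus strand: gaggaccttaTGACTCAgaagtataaa
HDAC10 coding, ATF/CRE, chr22:50686358-50686385, minus strand: ttctgcccccTGACGTCAtccaacagga
In *PER3*, a circadian clock gene, and in *LMAN1L* and *FBN1*, the gene of the extracellular matrix protein fibrillin, the capitals began at the second base of the intron that follows the exon. *LMAN1L* and *FBN1* were chosen after their values were seen.
PER3 exon end, AP-1, chr1:7870640-7870666, plus strand: atggtggtggTGAGTCAgccggcagcc
LMAN1L exon end, AP-1, chr15:75111150-75111176, plus strand: aggctgcgcgTGAGTCAcccttcctgc
FBN1 exon end, AP-1, chr15:48752425-48752451, minus strand: tacccgttggTGAGTCAtgacggcatt
The remaining examples were untranslated, in the 5′ UTR of *PC*, which encodes pyruvate carboxylase, and in the 3′ UTRs of *SDR42E1* and *SHISA7*.
PC 5′ UTR, AP-1, chr11:66717689-66717715, minus strand: ctggccatgcTGAGTCAtacttagtct
SDR42E1 3′ UTR, AP-1, chr16:82030888-82030914, minus strand: tggcccgatgTGAGTCAtccttccttt
SHISA7 3′ UTR, ATF/CRE, chr19:55943774-55943801, minus strand: ccttgccctaTGACGTCAtcagagggac

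The exon sites divided almost evenly between coding and 3′ untranslated sequence. The centre lay in a 3′ UTR at 817 sites (49.5%, 47.1% to 52.0%), in coding sequence at 780 (47.3%, 44.9% to 49.7%) and in a 5′ UTR at 52 (3.15%, 2.41% to 4.11%). By position in the transcript, 951 sites (57.7%, 55.3% to 60.0%) were in the last exon, 692 (42.0%) in a middle exon, 5 in the only exon of a gene and 1 in a first exon. The distance rule itself removed nearly all first exons, since these begin at a TSS. Of the 3′ UTR sites, 803 were in the last exon, and coding sites comprised 634 in middle exons and 146 in last exons. The single first-exon site was in *MTRFR*, a gene of mitochondrial translation release, with a score of 31 in ATF3-CPT and 12 in ATF3-Ctrl. Here the score is the number of tags in the peak with at most 1 counted per position, not scaled to library size.

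Relative to the sequence available, 5′ UTRs held the most exon sites. Over 2 kb from a TSS, the density was 63.8 sites per Mb in 5′ UTRs (47.6 to 83.6), 30.3 in coding sequence (28.3 to 32.6) and 22.3 in 3′ UTRs (20.8 to 23.9). Introns had 22.8 per Mb (22.5 to 23) and intergenic sequence 18.3 (18.0 to 18.5). The interval of the coding density therefore lay above those of 3′ UTRs, introns and intergenic sequence, and that of 3′ UTRs overlapped the intron value. Sequence within 2 kb of a TSS had 116 peaks per Mb (115 to 118). The 5′ UTR sites lay nearer to a TSS, at a median of 7483.5 bp against 12619 bp at coding and 12920 bp at 3′ UTR sites. The part of this distance in the densities was not tested. A peak spans 125 bp and many coding exons are short, so the assignment by centre matters. The exon had a median length of 175 bp at coding sites and 3250 bp at 3′ UTR sites, and the peak lay wholly within it at 273 coding sites (35.0%) and 789 3′ UTR sites (96.6%).

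**Figure D1:**
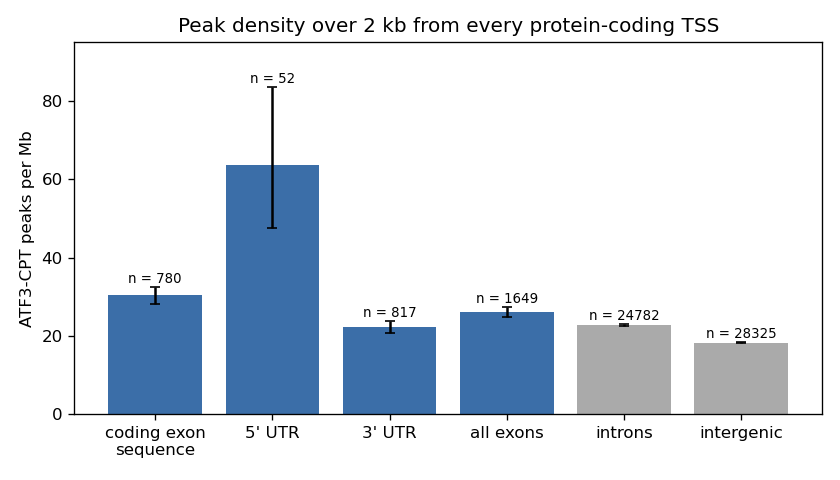
Bars give ATF3-CPT peaks per Mb of each kind of sequence over 2 kb from every protein-coding TSS, with 95% Poisson intervals as error bars and the number of peaks above each bar. The 5′ UTR bar stands highest at 63.8 per Mb on 52 peaks, and the coding bar, at 30.3, is above the intron bar at 22.8.

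Within the last exon, sites were spread along the 3′ UTR. The part nearest the stop codon, by 3 equal divisions of its length, held 245 of 803 sites (30.5%, 27.4% to 33.8%), the middle part 287 (35.7%, 32.5% to 39.1%) and the part nearest the transcript end 271 (33.7%, 30.6% to 37.1%). The median distance was 1233 bp from the start of the UTR and 1145 bp from the transcript end.

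Exon sites were weaker than other distal peaks. Their median score was 15 (interval 15 to 16, quartiles 11 and 26, range 9 to 194), and 591 (35.8%) scored at least 20, against a background of 41.5% over all ATF3-CPT peaks. The difference from intron peaks was -5.71 points (-8.07 to -3.29). Coding sites had the lower scores, with 30.8% at 20 or more against 40.5% of 3′ UTR sites, a difference of -9.74 points (-14.4 to -5.05).

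The highest-scoring coding sites differed widely in how much of their signal was already present without CPT. At *FIGNL1*, which encodes an ATPase of homologous recombination, the last-exon site on chromosome 7 (50514520 to 50514644) scored 152 in ATF3-CPT and 156 in ATF3-Ctrl. Its normalized tag count, scaled to 10000000 tags, was 148.2 with CPT and 203.9 without, a ratio of 0.727 (exact interval 0.606 to 0.871). The *FIGNL1* site thus had less signal after CPT, its peak held no core, and another transcript of the gene placed it in the 3′ UTR. *ELAPOR1*, in exon 16 of 22, scored 137 and 29, with normalized tag counts of 126.8 and 23.2 and a ratio of 5.47 (3.71 to 8.33). *PER3*, in exon 13 of 22, scored 123 and 26, a ratio of 4.99 (3.31 to 7.81) in normalized tag count. *ATP6V0A4*, a subunit of the proton pump of acid-secreting cells, scored 115 and 39 without a core, and *STARD5*, a lipid-binding protein, 123 and 84 with an AP-1 core. The ratio intervals of *ELAPOR1* and *PER3* overlapped each other and lay above that of *STARD5*, at 1.39 (1.08 to 1.79).

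In 5′ UTRs the highest scores belonged to *PC* with 141 in ATF3-CPT and 38 in ATF3-Ctrl, *PTP4A1*, a protein tyrosine phosphatase, with 106 and 50, *SEPTIN10* with 101 and 44, *CCNY*, a cyclin, with 94 and 39, and *ANXA2*, a membrane-binding annexin, with 92 and 55. These peaks, apart from that of *ANXA2*, held an AP-1 core. The normalized tag count was 3.94 times higher with CPT at *PC* (2.84 to 5.59) and 1.51 times higher at *ANXA2* (1.10 to 2.10). All 5 lay in middle exons, that is, in leader exons spliced between an upstream start and the coding sequence.

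The strongest exon site of all was in the 3′ UTR of *UBE2H*, which encodes a ubiquitin-conjugating enzyme. It scored 194 with CPT and 179 without, and the normalized tag count moved from 247.2 to 304.1, a ratio of 1.23 (1.07 to 1.42). That rise holds for the normalized tag count only. The ATF3-CPT library was the larger, and relative to library size the score was lower with CPT. The normalized tag count stands for 470 tags with CPT and 320 without, more than the scores, so some tags shared a position. The interval treats such tags as independent. *PPP1R12B*, a regulatory subunit of myosin phosphatase, scored 158 and 38 with a ratio of 5.95 (4.21 to 8.64). Neither of these peaks held a core, so a core was not shared by all strong sites or by all that rose most. *TMEM134* scored 131 and 81 and *SESTD1* 121 and 91, both with an AP-1 core. Among genes with 1 exon, the 3′ UTR site of *PAQR9* scored 91 and 28. *HCAR1*, *ITPRIPL2*, *ZXDB* and *GJD3* scored 15 to 21 with no Ctrl peak.

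About 1 exon site in 3 was already listed in untreated cells. An ATF3-Ctrl peak overlapped 533 sites (32.3%), against a background of 38.3% over all ATF3-CPT peaks, and 1116 sites had none. The share was 34.8% for intron peaks, a difference of -2.47 points (-4.76 to -0.0978), and 48.5% within 2 kb of a TSS, a difference of -16.2 points (-18.5 to -13.8). It was 237 of 780 coding sites (30.4%), 270 of 817 3′ UTR sites (33.0%) and 26 of 52 5′ UTR sites. Coding minus 3′ UTR was -2.66 points (-7.21 to 1.90), a difference that the counts did not resolve.

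Basal presence followed the score. An ATF3-Ctrl peak was found at 43 of 495 exon sites scoring 9 to 11 (8.69%), 49 of 347 scoring 12 to 15 (14.1%), 63 of 216 scoring 16 to 19 (29.2%), 95 of 256 scoring 20 to 29 (37.1%) and 283 of 335 scoring 30 or more (84.5%). In intron peaks the shares of the same bands were 8.10%, 12.1%, 21.3%, 39.0% and 83.9%. Peaks near a TSS were above exon sites in every band, with 15.6%, 29.8%, 45.6%, 62.3% and 89.3%. An exon site without an ATF3-Ctrl peak may still have been bound below 9 tags, and binding at that level was not detectable at this depth.

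**Figure D2:**
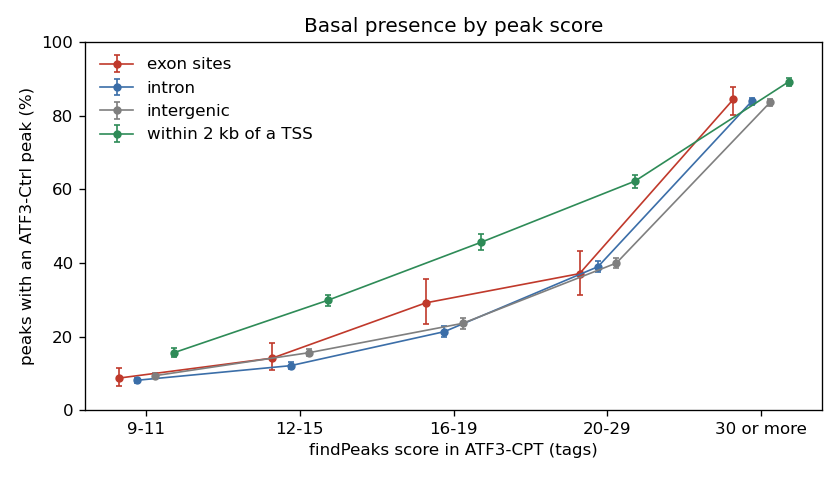
Points give the percent of ATF3-CPT peaks that overlap an ATF3-Ctrl peak, by band of ATF3-CPT score, with 95% Wilson intervals. Exon sites rise from 8.69% in the lowest band to 84.5% in the highest, close to intron and intergenic peaks, and peaks within 2 kb of a TSS lie above them in every band.

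The highest-scoring sites with no ATF3-Ctrl peak were in *EZR*, which links actin to the membrane, with a score of 67 in coding exon 6 of 14, *KCNC4*, a potassium channel, with 51, *SLC36A3*, an amino acid transporter, with 49, *CDC25A*, a phosphatase that drives the cell cycle, with 45, and *RAB30*, a small GTPase, with 44. Their normalized tag counts in ATF3-CPT ranged from 30.4 at *RAB30* to 54.3 at *EZR*. None of the 5 overlapped a peak of ATF3-KO or p53-CPT.

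At most shared exon sites the signal was higher with CPT. Over the 533 sites the normalized tag count of CPT over Ctrl had a median log2 ratio of 0.88 (0.78 to 0.98), and it was above 0 at 450 (84.4%). Over all shared peaks the median was 0.86 and 80.8% were above 0. By the headers, 12.76% of the tags of ATF3-CPT and 5.60% of those of ATF3-Ctrl lay in peaks, and the part of this difference between the libraries in the ratios was not tested. The normalized tag count was past 2-fold higher at 240 of the 533 exon sites (45.0%), against a background of 43.9% over all shared peaks. That background pooled 52.8% in introns, 48.2% in intergenic sequence, 27.6% within 2 kb of a TSS and the exon sites. Exon minus intron was -7.80 points (-12.1 to -3.43). The normalized tag count was past 2-fold lower at 8 exon sites (1.50%), against a background of 1.96%. The 3′ UTR sites were past 2-fold higher at 151 of 270 (55.9%) and the coding sites at 79 of 237 (33.3%), a difference of 22.6 points (14.0 to 30.7). Among coding sites, those in middle exons did so at 71 of 183 (38.8%) and those in last exons at 8 of 54 (14.8%), a difference of 24.0 points (10.4 to 34.1). A weak peak can hardly be past 2-fold higher, since an ATF3-Ctrl peak needs 9 tags to be listed. The median ATF3-CPT score of shared sites was 35 in 3′ UTRs and 25 in coding sequence. It was 28 at coding sites of middle exons and 20 at those of last exons. These differences were not divided by score.

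The largest ratios were at *SDR42E1*, with normalized tag counts of 44.6 and 6.2 (ratio 7.22, 3.47 to 17.4), *SMG6*, an endonuclease of nonsense-mediated mRNA decay, with 57.6 and 9.3 (6.21, 3.39 to 12.5), and *ITPR2*, an inositol trisphosphate receptor, with 41.4 and 7 (5.96, 2.95 to 13.6), besides *PPP1R12B* and *ELAPOR1*. The smallest were at *PIWIL2*, an argonaute protein of the piRNA pathway, with 11.6 and 30.9 (0.377, 0.203 to 0.673), *OSBPL11* with 5.8 and 13.9 (0.419), *PPIL3* with 6.5 and 15.4 (0.419), *RPS14*, a ribosomal protein, with 9.1 and 20.1 (0.451), and *NT5C1A*, a nucleotidase, with 11 and 23.9 (0.459). These 5 sites were all in last exons and held no core.

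An AP-1 or ATF/CRE core was present in 656 exon sites (39.8%), against a background of 41.9% over all ATF3-CPT peaks and 1.97% in windows of the same width 1 kb to either side. The cores searched were the AP-1 core TGACTCA with its reverse complement TGAGTCA and, for ATF/CRE, the palindrome TGACGTCA, and the AP-1 and ATF/CRE cores cannot share a match. AP-1 accounted for 637 sites and ATF/CRE for 19, and no site held both. The core lay a median of 16 bp from the peak centre, and within 25 bp at 459 sites (70.0%). It was found in 255 coding sites (32.7%), 374 3′ UTR sites (45.8%) and 27 5′ UTR sites (51.9%), so that coding minus 3′ UTR was -13.1 points (-17.8 to -8.31). Exon sites had a core less often than intron peaks, by -8.67 points (-11.1 to -6.21).

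Core density in the genome differed in the same direction. AP-1 cores numbered 118 per Mb of coding sequence and 150 per Mb of 3′ UTR. The share of them inside an ATF3-CPT peak had overlapping intervals in both, at 202 of 3029 in coding sequence (6.67%, 5.83% to 7.61%), 402 of 5491 in 3′ UTRs (7.32%, 6.66% to 8.04%) and 7.51% in introns. In 5′ UTRs it was 24 of 131 (18.3%, 12.6% to 25.8%). ATF/CRE cores were denser in coding sequence, at 8.75 per Mb against 3.71 in 3′ UTRs. Of 225 coding matches, 9 (4.00%, 2.12% to 7.43%) lay in an ATF3-CPT peak, and 0 lay in an ATF3-Ctrl peak. The ATF3-CPT share was 3.73% in introns and 5.75% in intergenic sequence, both within the coding interval. Near a TSS, 581 of 1287 ATF/CRE cores (45.1%) were in an ATF3-CPT peak and 36.9% in an ATF3-Ctrl peak.

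Coding sequence is annotated as a run without stop codons, so a core within it could not begin at the first base of a codon. Of 186 AP-1 cores wholly within the coding sequence of exon sites, 86 (46.2%) began at the second base of a codon and 100 (53.8%) at the third. The 0 at the first base was fixed by the annotation and says nothing about binding. Over all coding AP-1 cores of the genome, 43.2% began at the second base and 56.8% at the third. The 9 ATF/CRE cores in coding sequence of exon sites all began at the third base, as in *HDAC10*, and over the genome 214 matches did so against 59 at the second base. The core shown for *TCP11L1* began at the second base of a codon and those of *ELAPOR1* and *EFNA5* at the third.

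Some cores were part of the splice donor, the GT-led sequence at the start of an intron. For each site the core nearest to the peak centre was placed relative to the exon. At 188 of 255 coding sites it lay inside the exon and at 67 outside it, 55 of these on the downstream side. Of those 67, 40 (59.7%, or 15.7% of the 255) began exactly at the second base of the intron, so that the intron opened with GTGAGTCA. With 3 sites of the same form in 5′ UTRs, 43 sites in 43 genes had this arrangement, and no other position within 40 bp of the exon end held more than 4. The positions of all AP-1 cores around exon ends, bound or not, were not counted. These counts therefore describe where cores lie and do not show a preference of binding. The 43 sites scored 9 to 123 with a median of 21, and 19 (44.2%) had an ATF3-Ctrl peak. The highest were *PER3*, then *LMAN1L* with 83 in ATF3-CPT and 26 in ATF3-Ctrl, *FBN1* with 54 and 16, and *CFAP74* with 51 and 17, of which the last was also chosen after its values were seen. The *PER3* peak held another AP-1 core, wholly in coding sequence at 7870629 to 7870635, so its score cannot be assigned to the donor core. Over 2 kb from a TSS, 665 of 134211 introns of canonical transcripts opened with GTGAGTCA (0.495%), and at 78 of them (11.7%, 9.50% to 14.4%) the core lay in an ATF3-CPT peak. That interval lay above the 6.67% of AP-1 cores in coding sequence and the 7.51% in introns. At 30 of them (4.51%, 3.18% to 6.37%) the core lay in an ATF3-Ctrl peak.

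**Figure D3:**
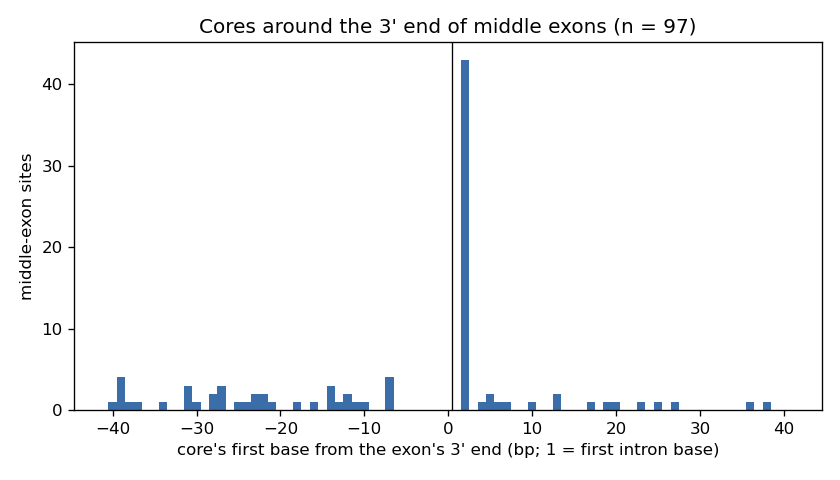
Bars count middle-exon sites by the distance of the first base of the core from the 3′ end of the exon, in bp on the gene's strand, for the 97 sites within 40 bp of that end, and the line marks the border. The bar at the second intron base holds 43 sites, and the next highest bars hold 4. Cores outside peaks are not shown.

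The response to CPT differed with the core. Of 226 shared exon sites with a core, 158 (69.9%, 63.6% to 75.5%) were past 2-fold higher with CPT and 0 past 2-fold lower, with a median log2 ratio of 1.32. Of 307 without one, 82 (26.7%, 22.1% to 31.9%) were past 2-fold higher and 8 lower, with a median of 0.52. The difference was 43.2 points (35.0 to 50.5). It held in coding sites, where the shares were 63.8% and 20.8% (difference 42.9 points, 29.3 to 54.6), and in 3′ UTR sites, where they were 73.2% and 36.7% (36.5 points, 24.9 to 46.8). All shared peaks of the genome had like shares of 66.6% with a core and 27.7% without, so the pattern was not particular to exons. Intron peaks had 67.0% and 37.8%. Exon minus intron was 2.89 points (-3.53 to 8.67) with a core and -11.1 points (-15.9 to -5.65) without one. Among exon sites with a core, 3′ UTR minus coding was 9.47 points (-3.49 to 23). Without a core it was 15.9 points (5.53 to 26.1), and coding sites of the last exon were past 2-fold higher at 3 of 46 (6.52%). The comparisons of 3′ UTR with coding sites, and of exon sites with intron peaks, were not divided by score.

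**Figure D4:**
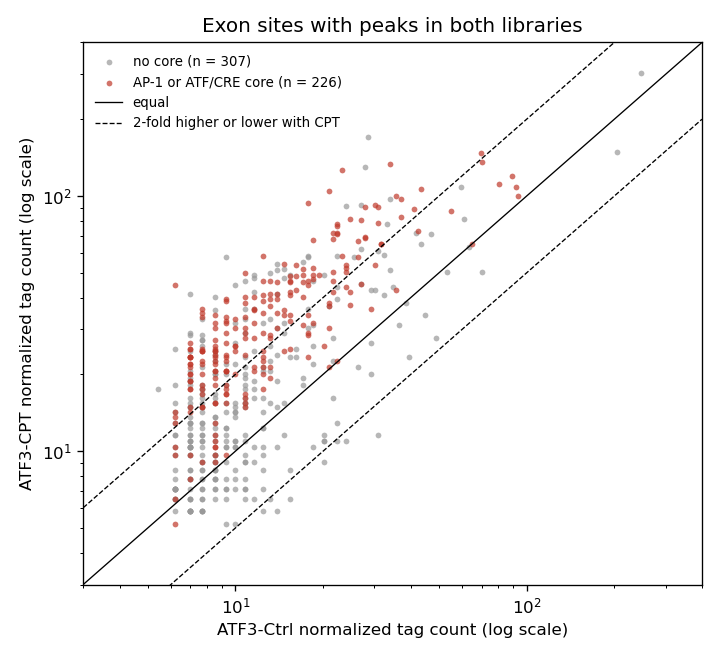
Each point is 1 of the 533 exon sites with a peak in both libraries, by normalized tag count in ATF3-Ctrl and ATF3-CPT on log axes, coloured by the presence of a core. The 226 sites with a core lie mostly above the upper 2-fold line, and the 8 below the lower line have no core.

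Score and core were not independent, so the sites were divided by both. At a score of 30 or more, 142 of 177 shared sites with a core (80.2%, 73.7% to 85.4%) and 61 of 106 without (57.5%, 48.0% to 66.5%) were past 2-fold higher. At 20 to 29 the counts were 15 of 34 (44.1%, 28.9% to 60.5%) and 21 of 61 (34.4%, 23.7% to 47.0%), with overlapping intervals, and at 16 to 19 they were 1 of 7 and 0 of 56. Within a band the difference was therefore smaller than over all scores. Below a score of 16, 0 shared sites were, since an ATF3-Ctrl peak needs 9 tags to be listed. The share with an ATF3-Ctrl peak was lower with a core than without one up to a score of 29. At a given ATF3-CPT score, this share and the ratio both depend on the ATF3-Ctrl signal, so they are not separate measures. At scores of 16 to 19, 7 of 74 sites with a core (9.46%, 4.66% to 18.3%) and 56 of 142 without (39.4%, 31.8% to 47.7%) had one. At 20 to 29 the shares were 27.0% and 46.9%, with intervals that did not overlap, and at 30 or more 86.8% and 80.9%, with overlapping intervals.

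**Figure D5:**
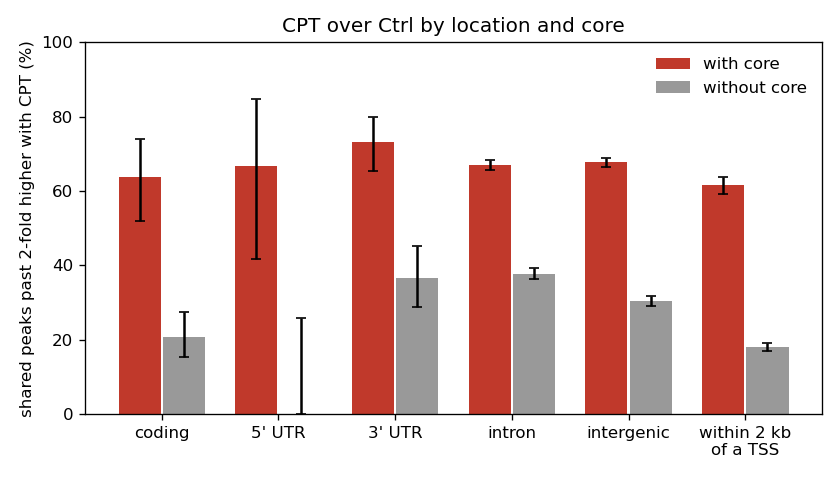
Bars give the percent of shared peaks whose normalized tag count is past 2-fold higher with CPT, with and without a core, by location, and error bars are 95% Wilson intervals. The bars with a core run from 61.5% within 2 kb of a TSS to 73.2% in 3′ UTRs, each above the bar without a core, which is 0 of 11 in 5′ UTRs.

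The highest-scoring exon sites with an ATF/CRE core were modest in score. *SHISA7* scored 45 in ATF3-CPT and 11 in ATF3-Ctrl, *ADCY9*, an adenylyl cyclase, 32 and 12, and *THSD4* 28 and 16. *HDAC10* and *S100A7A* scored 27 each and had no ATF3-Ctrl peak. The 5 lay in 3′ UTRs apart from the coding sites of *THSD4* and *HDAC10*.

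Few exon sites had a peak in cells without ATF3. An ATF3-KO peak overlapped 13 (0.788%), 11 of them coding, against a background of 2.48% over all ATF3-CPT peaks. The share was 0.476% for intron peaks, 1.48% for intergenic peaks and 7.73% within 2 kb of a TSS. Exon minus intron was 0.312 points (-0.028 to 0.874), a difference that the counts did not resolve. Coding sites of the last exon overlapped an ATF3-KO peak at 4.11% and those of middle exons at 0.789%, a difference of 3.32 points (0.874 to 7.91). The highest, chosen after their values were seen, were *LRRC24* with 64 in ATF3-CPT, 58 in ATF3-Ctrl and 24 in ATF3-KO, *ACTN1*, the gene of the actin cross-linker alpha-actinin, with 39, 17 and 16, and *PELO*, a factor of ribosome rescue, with 36, 27 and 12. No exon site named above for its score was among the 13.

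A p53-CPT peak overlapped 14 exon sites (0.849%), against a background of 1.3% over all ATF3-CPT peaks. The share was 0.928% for intron peaks and 1.65% for intergenic peaks. Exon minus intron was -0.0791 points (-0.445 to 0.503), which the counts did not resolve. Among the 14, the 5 with the highest ATF3-CPT score were *TMEM134* (131, with a p53 score of 10), *PGPEP1* (121 and 62), *GRAPL* (89 and 7), *EFNA5* (65 and 8) and *TCP11L1* (36 and 20). *TCP11L1* was the only one of these 5 with no ATF3-Ctrl peak, and *PGPEP1* the only one without an AP-1 core. The highest p53 score, 98, was at a 3′ UTR site of *SHROOM3* that scored 33 in ATF3-CPT and 12 in ATF3-Ctrl, named after its values were seen. A p53-KO peak overlapped 2 exon sites, against a background of 0.429%.

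Genes with several sites included sequence that exists in near-identical copies. *NEB*, which encodes the muscle filament protein nebulin, held 6 coding sites in 6 exons, with ATF3-CPT scores of 10 to 35, 4 ATF3-Ctrl peaks and no core. Of these, 3 lay 10526 to 21108 bp apart, and their 125 bp were 99.2% to 100% identical, so reads of 1 copy cannot be told from those of the others and these values are uncertain. The central 31 bases of a site occurred more than once in the genome for 75 of the 1649 sites (4.55%). They included 6 genes of the *TBC1D3* family with scores of 16 to 32, and *ANKRD36*, *ANKRD36B* and *ANKRD36C* with 46 to 69, named after their values were seen, as well as *GRAPL*. *SH3TC2*, *GLG1*, *LAMA2*, a laminin chain, and *STN1*, a telomere protein, held 4 sites each, and 18 genes held 3.

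By gene group, the exon sites were compared with the share of exon sequence that each group holds. Of 36 p53 target genes, 3 held a site, all in the 3′ UTR without a core or an ATF3-Ctrl peak: *GADD45A*, a growth arrest gene, scored 29, *TIGAR*, a regulator of glycolysis, 12, and *SPATA18* 10. The group held 0.182% of the sites and 0.198% of the exon sequence. Of 44 ATF, CREB and AP-1 family genes, 3 held 4 sites (0.243% against 0.189% of sequence), in the 3′ UTRs of *ATF6*, *CREB1* and *NFE2L3*, with scores of 9 to 12. Of 37 immediate early and MAPK feedback genes, 2 held 4 sites (0.243% against 0.149%). The *IER2* site, 180 bp from a gene start that the 2 kb rule did not count, scored 81 with CPT and 45 without. *KLF6*, a zinc finger factor, had 3 sites of 12 to 32 with no ATF3-Ctrl peak. Of 61 DNA damage signalling and repair genes, 3 held 4 coding sites (0.243% against 0.459%), in *XRCC6*, the Ku70 gene of end joining, with 28, *XPA* with 18 and *FANCD2* with 10 at both sites.

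C2H2 zinc finger genes held 37 sites in 31 of 608 genes, which was 2.24% of the sites (1.63% to 3.08%) against 4.25% of the exon sequence. Collagen and laminin genes held 10 sites (0.606% against 0.546%), and large cytoskeletal genes 13 (0.788% against 0.737%), among them *SPTAN1*, a spectrin, with 109 in ATF3-CPT and 29 in ATF3-Ctrl, *TLN2*, a talin, with 70 and 19, and *MACF1* with 38 and 19. Cadherin and protocadherin genes held 5 sites and mucin genes 2. The interval of the share of sites lay below the share of sequence for the zinc finger genes, and included it for the other groups.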

How the data were processed

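Reads had been aligned to hg19 with BWA 0.6.1 and peaks called per library with HOMER 4.1 findPeaks, per the submitters' processing notes, at a false discovery rate of 0.001 and without an input control in the deposited headers. The authors deposited for each peak a normalized tag count, a signal in tags per 10000000, and a score, a count of tags with at most 1 per position. The deposited lists also hold a focus ratio (a fraction), fold changes over the local region and their p-values, which the authors computed and which were not used.

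Exons and TSSs came from the protein-coding transcripts of GENCODE release 44 mapped to GRCh37 (89007 transcripts of 19756 genes). Where transcripts differed, the canonical one was taken, then the principal one, then the longest coding sequence. This choice decided between coding and UTR at 60 sites. Overlap meant at least 1 bp. Shares have Wilson intervals, medians order-statistic intervals, differences of shares Newcombe intervals, densities exact Poisson intervals and ratios exact intervals from the tags. No test was run, as each group was 1 library. PCR copies are not independent molecules, so intervals cover counting error only, and 3 tags corresponded to a normalized count of 1.94 with CPT and 2.32 without.

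The sites named were the 5 highest by score of each class, the 5 largest and smallest ratios, genes with 3 or more sites, and up to 4 sites of each of 9 gene lists; not every one is described. The members and lists were chosen with earlier results of these data known, and the splice donor, copy number and further motif searches were added after the values had been seen. Scripts (Python 3.11.15, numpy 2.4.6, pandas 2.3.3, scipy 1.17.1, pysam 0.24.0) were tested on simulated data, and 7 of 7 checks passed. Alternatives changed the annotation, distance, exon rule, score, overlap, core window and copies in the genome.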

Additional observations from a re-analysis of the deposited data

How the results depend on the processing

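No paired analysis was possible because each condition had 1 library, and for the same reason no replicate could be left out. The comparisons above rest on counting error alone, and a peak under the tag threshold of its library could not be seen. Of 61 values recomputed under alternatives, 47 stayed within their interval or within 1.5 times the count. Requiring a score of at least 20 left 591 sites, of which 40.6% were coding, 61.1% in the last exon, 64.0% with an ATF3-Ctrl peak, 55.8% with a core and 1.35% with an ATF3-KO peak, with a median log2 ratio of 1.23. The coding share became a majority under other exon rules. It was 51.5% with 1 canonical transcript per gene and 55.9% where 1 bp of the peak in an exon was enough. The latter rule also left a minority of 47.8% in the last exon. Counting a last exon of any transcript gave 60.6%. The share with an ATF3-Ctrl peak was 28.5% with centres within 50 bp, 34.9% within 500 bp and 20.7% with an ATF3-Ctrl score of at least 12. Leaving out sites whose central 31 bases recur, a choice made after seeing the data, left 1574 sites, 46.9% coding and 32.2% with an ATF3-Ctrl peak.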

Other observations

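The 993 exon sites without an AP-1 or ATF/CRE core were searched for letters of other factors, on both strands, with windows of the same width 1 kb to either side for comparison. TGATGNAA, the letters of the composite C/EBP-ATF element, which heterodimers such as those of ATF4 bind, occurred in 95 of them (9.57%, 7.89% to 11.6%) and in 2.11% of the windows beside them, against 9.75% of all ATF3-CPT peaks without a core. Over all exon sites it was in 120 of 1649 (7.28%), and over all ATF3-CPT peaks in 7.31%, so the exon sites did not stand apart in it. At sites without a core the share was 51 of 307 (16.6%, 12.9% to 21.2%) where ATF3-Ctrl also had a peak and 44 of 686 (6.41%, 4.81% to 8.50%) where it had none. Sites with a core held the element at 25 of 656 (3.81%, 2.59% to 5.57%).

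A match to the core of the CTCF motif occurred in 73 of the 993 sites (7.35%, 5.89% to 9.14%), in 0.352% of the windows beside them and in 4.12% (3.93% to 4.31%) of all ATF3-CPT peaks without a core. Over all exon sites it was in 82 of 1649 (4.97%, 4.02% to 6.13%), and over all ATF3-CPT peaks in 2.80%. At coding sites of the last exon without a core it was found in 14 of 107 (13.1%, 7.96% to 20.8%). Sites with a core held it at 9 of 656 (1.37%). Of the 27 sites with this match, no core and an ATF3-Ctrl peak, 4 were past 2-fold higher with CPT (14.8%). Of the 280 like sites without the match, 78 were (27.9%). The median log2 ratio was close in both, at 0.51 with the match and 0.52 without it. GGGCGG, the GC box, was in 10.8% of the sites without a core and 4.78% of their windows, and GGAATG, the TEAD letters, in 10.9% and 6.75%. Both were below the shares over all ATF3-CPT peaks without a core, 15.4% for the GC box and 13.6% for the TEAD letters. AGATAA, the GATA letters, was in 4.33% of the sites without a core and 7.30% of their windows, against 3.98% of all ATF3-CPT peaks without a core. A match is a description of the sequence, and whether any of these factors was bound was not measured.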
